A study of Homo sapiens with 12 samples.

Results

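The hypoxia-inducible factors HIF1A and EPAS1 and 8 of their known target genes were examined in 3 established prostate cell lines by RNA sequencing. The 10 genes, HIF1A, EPAS1, EGLN3, VEGFA, ADM, CA9, CA12, NDRG1, BNIP3 and ANKRD37, were chosen by name and were all found among the 58302 genes of the deposited table, once each. The study profiled the benign line BPH-1 and the non-androgen-dependent prostate cancer lines DU145 and PC3, with 4 libraries for each line. All cells were WT, were grown in DMEM with fetal bovine serum, penicillin and streptomycin, and no treatment or oxygen level is given for them. Every group is 1 cell line, so a difference between groups is a difference between lines, and whether the 4 libraries of a line came from separate cultures is not stated. The p-values therefore measure only the spread between these libraries, and in bulk RNA fewer cells of a kind and less RNA per cell cannot be told apart.

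HIF1A and EPAS1 (also called HIF-2 alpha) encode oxygen-labile transcription factor subunits. With oxygen present, prolyl hydroxylases of the EGLN family mark them for binding by VHL and for destruction, and with little oxygen they pair with ARNT and switch on genes for blood vessel growth, pH control, glycolysis and mitophagy. This control acts mainly on the protein, so that the transcript level of a factor is not a measure of its activity.

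HIF dimers bind a short core, and ACGTG is a form of it. This form, called the core below, was searched on both strands in promoter windows from RefSeq (GRCh38.p14). Each window was 300 bases long, from 250 before to 50 after a start site. Other forms were not searched. Windows were found for 8 of the 10 genes, and those of 3 genes, CA9, BNIP3 and ANKRD37, held the core. Those of HIF1A, EPAS1, EGLN3, ADM and CA12 did not hold these letters, and the core was present in 7518 of all 35116 windows, or 21.4%. The stretches around the matches are shown for each of these 3 genes. They read 5′ to 3′ on the strand of the gene, with the core in capitals, as ACGTG or, where it lies on the other strand, as CACGT, and both overlap in CACGTG.
CA9: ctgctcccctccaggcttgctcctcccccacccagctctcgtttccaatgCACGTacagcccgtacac
BNIP3: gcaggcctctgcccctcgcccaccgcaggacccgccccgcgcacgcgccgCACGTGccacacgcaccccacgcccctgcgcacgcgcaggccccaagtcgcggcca
ANKRD37: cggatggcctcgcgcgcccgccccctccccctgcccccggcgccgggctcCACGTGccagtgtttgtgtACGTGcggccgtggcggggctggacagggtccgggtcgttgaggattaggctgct
The CA9 stretch is chr9:35673860-35673927 on the plus strand, with the core at position -18 from the start site. The BNIP3 stretch is chr10:131982002-131982107 on the minus strand, with overlapping matches from position -134. The ANKRD37 stretch is chr4:185396629-185396752 on the plus strand, with overlapping matches from position -162 and a further match at position -143. A match is a description of the letters and was not tested for binding.

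The values are FPKM, reads scaled to the exon length of a gene and the depth of a library, and depth was between 12950667 and 16309559 reads in a library. Libraries differed in how well genes of low GC content were recovered. The GC tilt, the median log2(FPKM + 1) of 2312 genes under 42% GC minus that of 4195 genes over 54% GC, was 0.29 to 0.51 in BPH-1, -2.25 to -0.59 in DU145 and -1.94 to -0.88 in PC3. It was strongest in DU145 replicates 1 and 3 and in PC3 replicates 3 and 4. Calls of the 10 genes that change once every library's trend with GC content is divided out are given with both values, and so are the counts of gene lists that change. All 5 epithelial markers were above 3 reads in every BPH-1 library. EPCAM was at 57.7 to 63.2 FPKM in BPH-1, 0.166 to 0.573 in DU145 and 6.92 to 11.1 in PC3. CDH1 was at 16.3 to 44.6 FPKM in BPH-1, 0.0851 to 0.297 in DU145 and 0.427 to 1.42 in PC3. KRT8 was at 14.7 to 32.5 FPKM in DU145 and KRT18 at 52.8 to 99.2. KRT5 was at 3 reads or fewer in DU145 replicates 3 and 4 and at 4 or fewer in PC3. KLK3 was listed at 0 in all 12 libraries and KLK2 reached at most 3 reads. PTPRC, the pan-leukocyte gene, was at 1.15 to 1.54 FPKM in BPH-1 and at 1.35 and 1.25 in DU145 replicates 1 and 2, and was listed at 0 in DU145 replicates 3 and 4 and in PC3. DCN, a fibroblast gene, had reads only in DU145 replicates 3 and 4, 102 and 51. The libraries labelled DU145 thus held little of EPCAM and CDH1, and CDH1 was low in PC3 too. The DU145 libraries also differed among themselves in PTPRC and DCN, so that the label was not borne out by all of its markers. DU145 here means the libraries so labelled. The part of these differences in the results below was not tested, and calls that end without either pair of DU145 libraries are given as such.

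In PC3 against BPH-1, 4 of the 10 genes were higher (CA12, NDRG1, BNIP3 and ANKRD37) and 4 were lower (HIF1A, EGLN3, ADM and CA9) at an adjusted p under 0.05. Of all 16407 genes tested, 27.1% were higher and 40.4% lower, 4452 and 6634 genes, and with upper-quartile scaling 6120 and 5061. The median log2 fold change was 0.26 over the 10 genes and -0.13 over all genes. CA9 had at most 2 reads in a DU145 library and could pass the filter on low reads only through the other line, so it is left out of the counts that involve DU145. In DU145 against BPH-1, 2 of the other 9 were higher (EPAS1 and VEGFA) and 2 lower (HIF1A and ADM), where 30.3% of 17017 genes were higher and 32.4% lower, with a median of 0.21 over the 9 genes and -0.03 over all. The genes higher and lower numbered 5161 and 5507, but 6159 and 4585 with upper-quartile scaling and 4131 and 6570 with an equal sum per library. In PC3 against DU145, 3 of the 9 were higher (CA12, NDRG1 and BNIP3) and 3 lower (EPAS1, EGLN3 and VEGFA), where 20.0% of 16421 genes were higher and 28.3% lower, with a median of 0.14 over the 9 genes and -0.05 over all. With the GC trend divided out, the genes higher and lower were 3 and 3 of 10 in the first comparison, 1 and 2 of 9 in the second and 4 and 2 of 9 in the third. Over all genes on that scale, 3624 were higher and 7178 lower of 16407 in the first comparison. In the second they numbered 4223 and 6360 of 17017, and in the third 4176 and 5171 of 16421. These are the background for all GC-corrected counts below. The first and second comparisons share the 4 BPH-1 libraries. All 10 genes passed the filter in each comparison.

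**Figure D1:**
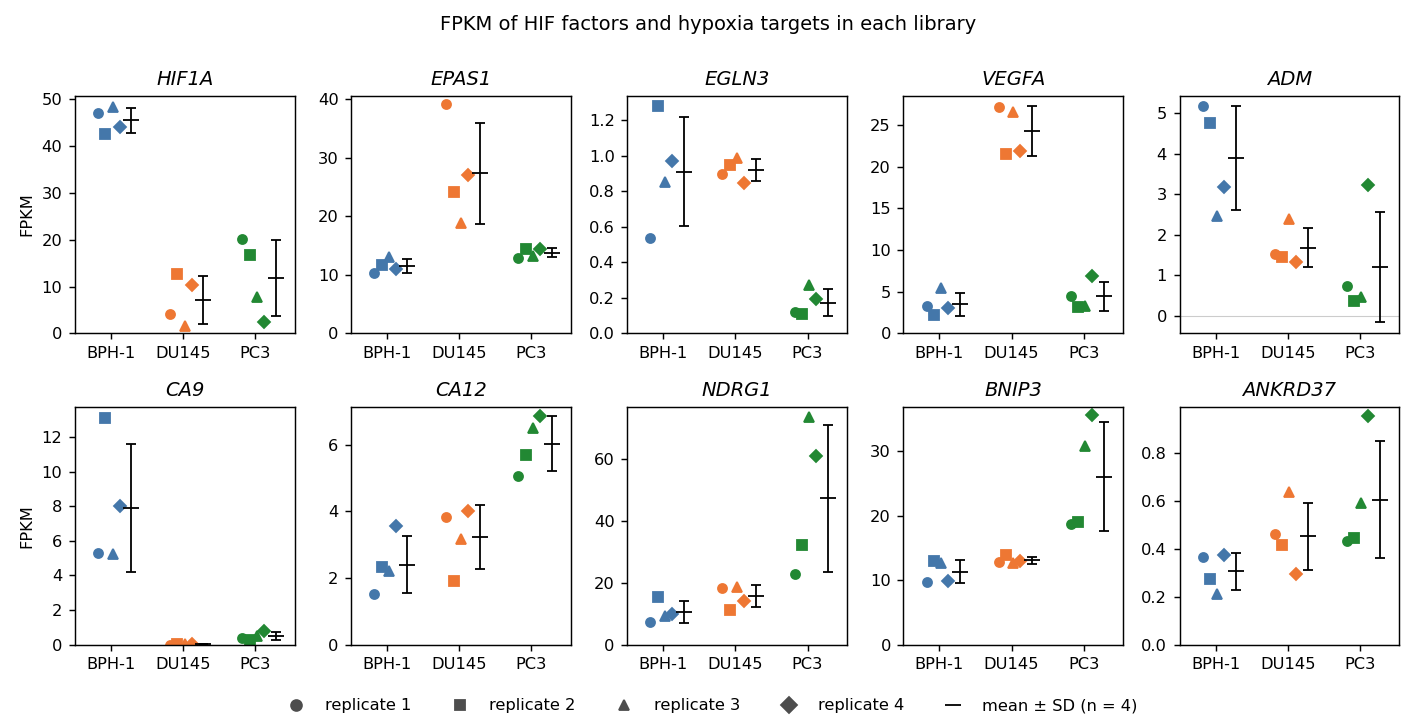
FPKM (linear axes, 1 panel per gene) of the 10 genes in every library, with the replicate number as the symbol and the mean ± SD of 4 libraries as a black bar. HIF1A and CA9 are highest in all 4 BPH-1 libraries, VEGFA and EPAS1 in all 4 DU145 libraries, and CA12, NDRG1 and BNIP3 in all 4 PC3 libraries.

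HIF1A (ENSG00000100644, chromosome 14, 61695513 to 61748259) was at 47.1, 42.6, 48.5 and 44.1 FPKM in BPH-1, at 4.06, 12.7, 1.49 and 10.2 in DU145 and at 20.2, 16.7, 7.83 and 2.45 in PC3. The 4 BPH-1 libraries lay close together and above every library of the cancer lines, whose ranges overlapped and spanned more than 8-fold each. The mean was 45.6 ± 2.70 (SD, n = 4) in BPH-1, 7.11 ± 5.21 in DU145 and 11.8 ± 8.14 in PC3. HIF1A was thus lower in DU145 (log2 fold change -2.81 ± 0.46 SE on log2(FPKM + 1), adjusted p = 0.000472) and in PC3 (-2.17 ± 0.49, adjusted p = 0.00306) than in BPH-1. Between PC3 and DU145 the difference was 0.64 (95% interval -0.89 to 2.17, adjusted p = 0.47).

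The HIF1A level followed the GC tilt of the libraries. HIF1A exons are 38.9% GC, and within each of the 3 lines the order of its 4 values was the order of the tilt. Of 830 genes within 1 percentage point of this GC content, 80.4% were also lower in DU145 (median log2 fold change -1.25) and 86.0% in PC3 (-1.26) than in BPH-1. With the GC trend divided out, the HIF1A difference from BPH-1 was -1.12 in DU145 (adjusted p = 0.00408) and -0.68 in PC3 (adjusted p = 0.0852), so that the PC3 call was lost. On that scale the mean level was 20.5 ± 0.20 in BPH-1, 9.28 ± 3.61 in DU145 and 13.6 ± 6.30 in PC3. Without the 4 libraries of strongest tilt, HIF1A was 0.65 higher in PC3 than in DU145 (adjusted p = 0.022). The genes most like HIF1A over the 12 libraries were ACTR2 (Pearson r = 0.997), ZMYM4 (0.994) and CDC27 (0.994), at 40.4%, 41.0% and 40.2% GC, and 1592 of 17669 genes had an r above 0.9.

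**Figure D2:**
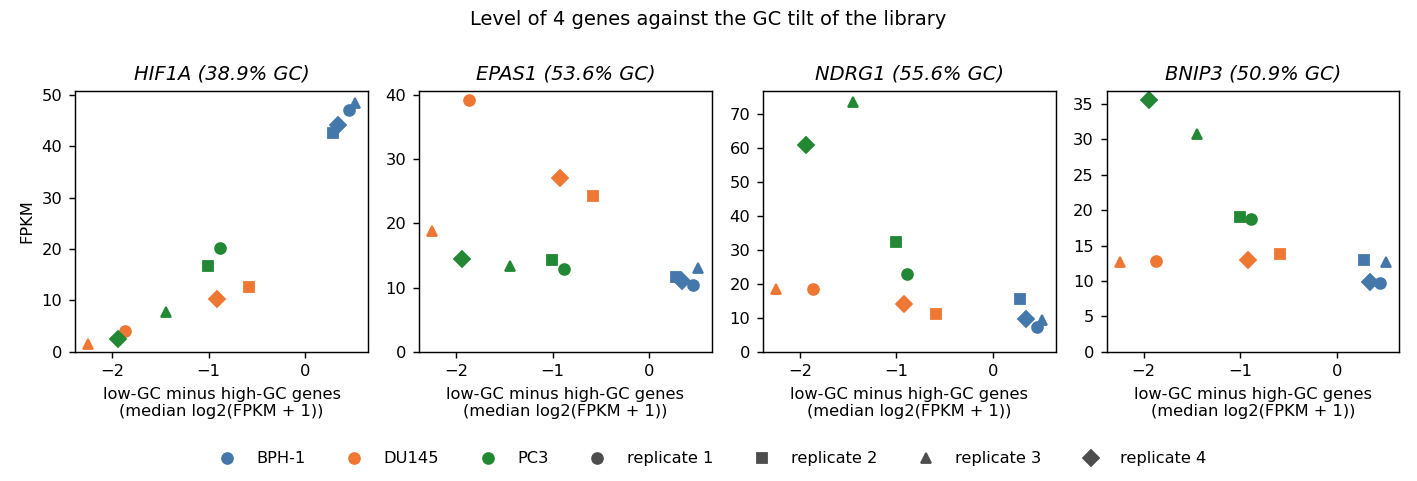
FPKM (linear) of HIF1A, EPAS1, NDRG1 and BNIP3 against the GC tilt of the library, with the line as the colour and the replicate as the symbol. HIF1A falls with the tilt from 48.5 to 1.49 FPKM, while the DU145 values of BNIP3 stay between 12.6 and 13.8 over the whole range of tilts in that line.

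EPAS1 (ENSG00000116016, chromosome 2, 46293667 to 46386703) was at 10.4, 11.6, 13.1 and 11.0 FPKM in BPH-1, at 39.2, 24.2, 18.9 and 27.1 in DU145 and at 12.9, 14.3, 13.3 and 14.4 in PC3. Every DU145 library was above every other library, and BPH-1 and PC3 overlapped. EPAS1 was higher in DU145 than in BPH-1 (log2 fold change 1.14 ± 0.21, adjusted p = 0.00113) and lower in PC3 than in DU145 (-0.90 ± 0.20, adjusted p = 0.0055). Both calls were lost with the GC trend divided out, at 0.47 (adjusted p = 0.152) and -0.65 (adjusted p = 0.0627). Between PC3 and BPH-1 the difference was 0.24 (95% interval 0.01 to 0.47, adjusted p = 0.0637), and it was past the threshold without BPH-1 replicate 3 (0.30, adjusted p = 0.0355). Its direction turned with the GC trend divided out (-0.18) and when every library was brought to an equal sum (-0.013), whereas median-of-ratios and upper-quartile scaling gave 0.36 and 0.61, both past the threshold. Its most similar profiles were those of AL139220.2 (r = 0.966), ARSG (0.962) and AL136309.2 (0.961).

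FPKM is per length, here the summed length of distinct exons, so the 2 factors could be set side by side within a library on that scale. HIF1A was above EPAS1 in all 4 BPH-1 libraries, with means of 45.6 and 11.5. EPAS1 was above HIF1A in all 4 DU145 libraries, with means of 27.3 and 7.11. In PC3 the means were 11.8 for HIF1A and 13.8 for EPAS1, and HIF1A was the higher of the pair in replicates 1 and 2 and the lower in replicates 3 and 4. The PC3 order of means depends on the length used, since lengths of merged exons gave 22.3 ± 15.4 for HIF1A and 21.6 ± 1.18 for EPAS1. After division by the GC trend, HIF1A was still above EPAS1 in the BPH-1 means and below it in the DU145 means (9.28 against 22.4), and the PC3 means were 13.6 and 13.4.

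EGLN3 (chromosome 14, 33924231 to 34462774), the prolyl hydroxylase that HIF itself induces, was at 0.540, 1.28, 0.851 and 0.973 FPKM in BPH-1, at 0.899, 0.950, 0.991 and 0.845 in DU145 and at 0.120, 0.106, 0.270 and 0.193 in PC3. The PC3 libraries, with 14 to 36 reads each, lay below all others, and BPH-1 and DU145 overlapped. The mean was 5.29-fold lower in PC3 than in BPH-1 and 5.35-fold lower than in DU145. On the log2(FPKM + 1) scale, which understates changes of low genes, these were -0.69 ± 0.11 (adjusted p = 0.000422) and -0.71 ± 0.07 (adjusted p = 4.02e-05), and voom on the recovered reads gave -2.40 and -2.49. DU145 differed from BPH-1 by 0.02 (95% interval -0.26 to 0.30, adjusted p = 0.892).

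VEGFA (chromosome 6, 43770184 to 43786487), the main growth factor for blood vessels, was at 3.25, 2.19, 5.42 and 3.09 FPKM in BPH-1, at 27.2, 21.5, 26.5 and 21.8 in DU145 and at 4.42, 3.15, 3.30 and 6.87 in PC3. The 4 DU145 libraries stood far above the other 8, which overlapped. The DU145 mean was 6.96-fold that of BPH-1 (log2 fold change 2.53 ± 0.22, adjusted p = 8.08e-06) and 5.47-fold that of PC3 (PC3 against DU145 -2.26 ± 0.22, adjusted p = 3.29e-05). After division by the GC trend the log2 values were 1.82 and -2.06, both still past the threshold. PC3 differed from BPH-1 by 0.27 (95% interval -0.30 to 0.85, adjusted p = 0.366). An antisense transcript, AL136131.3, shares 188 exon bases with VEGFA and was at a mean of 0.602, 3.05 and 0.795 FPKM in BPH-1, DU145 and PC3, and because the use of strand in counting is not given in the sources used here, reads of overlapping genes cannot be told apart.

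ADM (chromosome 11, 10304680 to 10307397), which encodes the vasodilator peptide adrenomedullin, was at 5.16, 4.74, 2.47 and 3.19 FPKM in BPH-1, at 1.53, 1.45, 2.39 and 1.34 in DU145 and at 0.731, 0.374, 0.457 and 3.21 in PC3. The BPH-1 libraries were above all DU145 libraries, and PC3 replicate 4 stood apart from the other 3 PC3 libraries and within the BPH-1 range. ADM was lower than in BPH-1 in DU145 (log2 fold change -0.85 ± 0.22, adjusted p = 0.00719) and in PC3 (-1.28 ± 0.35, adjusted p = 0.00907). Without the DU145 libraries that had PTPRC reads, replicates 1 and 2, the DU145 value was -0.76 (adjusted p = 0.0599). PC3 against DU145 gave -0.44 (95% interval -1.20 to 0.32, adjusted p = 0.319), and -0.81 (adjusted p = 0.00458) without PC3 replicate 4.

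Of the ligands and receptors that act with VEGFA and ADM, VEGFC, a growth factor for lymph vessels, had another order over the lines, at a mean of 55.8 FPKM in BPH-1, 5.17 in DU145 and 58.4 in PC3. It was lower in DU145 than in BPH-1 (-3.20, adjusted p = 1.02e-06). NRP1, a co-receptor for VEGFA, was at 0.996, 3.48 and 34.8 FPKM in BPH-1, DU145 and PC3, and was higher in PC3 than in BPH-1 by 4.15 (adjusted p = 6.44e-08). KDR, the main VEGFA receptor, was at 0.712 FPKM in PC3 and at 0.00943 in BPH-1. KDR is also an endothelial marker, and another, PECAM1, was at 1.19 to 2.28 FPKM in PC3 against 0.130 to 0.179 in BPH-1, while CDH5 and VWF had at most 3 reads in a PC3 library, and the part of this in the KDR value was not tested. Genes of this list with at most 3 reads in every library of a line (KDR in BPH-1, CALCRL in DU145 and PC3) were left out of the counts. In PC3 against BPH-1, 2 of 5 were higher and 1 lower, or 1 and 1 with the GC trend divided out, with a median of 0.08 against -0.13 over all genes. In DU145 against BPH-1, 3 of 5 were higher and 2 lower, or 1 and 2 after the GC correction, with a median of 0.44 against -0.03. Between PC3 and DU145, 4 of 6 were higher in PC3 and 1 lower, with a median of 0.77 against -0.05. KDR is among those 4, but it had at most 9 reads in a DU145 library and passed the filter only through PC3. The shares over all genes are those given above for each comparison.

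CA9 (chromosome 9, 35673856 to 35681159), a surface carbonic anhydrase widely used as a marker of hypoxic cells, was at 5.30, 13.1, 5.24 and 8.05 FPKM in BPH-1, at 0, 0.0229, 0.0483 and 0.0278 in DU145 and at 0.374, 0.245, 0.511 and 0.806 in PC3. None of the 3 ranges overlapped, and the 4 DU145 libraries held 4 CA9 reads in all, at most 2 in a library. Against a floor of 3 reads per library, the mean in BPH-1 was at least 108-fold higher and that in PC3 at least 6.60-fold higher than in DU145, with counting error only. The BPH-1 mean was 16.4-fold that of PC3. CA9 was lower in PC3 than in BPH-1 (log2 fold change -2.52 ± 0.26, adjusted p = 2.50e-05), and no test is given against DU145. ARHGEF39 on the opposite strand shares 643 exon bases with CA9 and was at 1.75, 1.90 and 0.533 FPKM in BPH-1, DU145 and PC3.

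CA12 (chromosome 15, 63321378 to 63382161), the other membrane carbonic anhydrase of the set, was at 1.52, 2.32, 2.22 and 3.56 FPKM in BPH-1, at 3.82, 1.91, 3.17 and 4.02 in DU145 and at 5.07, 5.68, 6.51 and 6.87 in PC3. Every PC3 library was above all others, and BPH-1 and DU145 overlapped, so that the order of the lines was not that of CA9. CA12 was higher in PC3 than in BPH-1 (log2 fold change 1.07 ± 0.18, adjusted p = 0.000599) and than in DU145 (0.76 ± 0.20, adjusted p = 0.0119). The second call was lost without the 4 libraries of strongest tilt, at 0.74 (adjusted p = 0.0814). DU145 differed from BPH-1 by 0.31 (95% interval -0.21 to 0.84, adjusted p = 0.264). Among the relatives of these enzymes, the cytosolic CA2 was at 5.22 FPKM in BPH-1, 1.25 in DU145 and 0.0123 in PC3, where it had at most 1 read in a library. It was lower in DU145 than in BPH-1 by 1.43 (adjusted p = 0.000334).

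NDRG1 (ENSG00000104419, chromosome 8), a stress-induced gene linked to growth arrest and differentiation, was at 7.44, 15.5, 9.34 and 9.74 FPKM in BPH-1, at 18.4, 11.3, 18.5 and 14.0 in DU145 and at 22.8, 32.2, 73.6 and 60.8 in PC3. All PC3 libraries were above all others, and replicates 3 and 4 of PC3 were far above replicates 1 and 2. The PC3 mean of 47.4 ± 23.8 was 4.51-fold that of BPH-1 (log2 fold change 1.97 ± 0.36, adjusted p = 0.0009) and 3.05-fold that of DU145 (1.43 ± 0.35, adjusted p = 0.00868). The GC correction gave 1.44 and 1.66, both past the threshold. The call against DU145 was lost without DU145 replicates 1 and 2, those with PTPRC reads, at 1.35 (adjusted p = 0.0644). DU145 differed from BPH-1 by 0.54 (95% interval 0.01 to 1.08, adjusted p = 0.072), and by 0.73 without BPH-1 replicate 2 (adjusted p = 0.018) and 0.68 without DU145 replicate 2 (adjusted p = 0.0318). Its paralogue NDRG2 was at 0.905 FPKM in BPH-1, 0.557 in DU145 and 0.00339 in PC3, at most 3 reads in a PC3 library, whereas NDRG3 was at 11.5, 21.0 and 19.1. Of the 8 carbonic anhydrase and NDRG relatives, 6 were tested, and CA2 and NDRG2 were left out of the counts with PC3. In PC3 against BPH-1, 1 of 4 was higher and 2 lower, or 1 and 1 with the GC trend divided out, with a median of -0.09 against -0.13 over all genes. In DU145 against BPH-1, 2 of 6 were higher and 1 lower, or 2 and 4 after the GC correction, with a median of -0.16 against -0.03. Between PC3 and DU145, 0 of 4 were higher in PC3 and 1 lower, with a median of -0.26 against -0.05.

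BNIP3 (chromosome 10, 131966455 to 131982013), which promotes the removal of mitochondria by autophagy, was at 9.65, 13.0, 12.7 and 9.79 FPKM in BPH-1, at 12.8, 13.8, 12.6 and 13.0 in DU145 and at 18.7, 19.0, 30.7 and 35.6 in PC3. PC3 lay above both other lines, which overlapped, and its replicates 3 and 4 were again above replicates 1 and 2. BNIP3 was higher in PC3 than in BPH-1 (log2 fold change 1.10 ± 0.22, adjusted p = 0.00156) and than in DU145 (0.89 ± 0.21, adjusted p = 0.00744). The second call was just lost without DU145 replicates 1 and 2 (0.92, adjusted p = 0.0507) and without replicates 3 and 4 (0.86, adjusted p = 0.0517). DU145 differed from BPH-1 by 0.21 (95% interval -0.14 to 0.55, adjusted p = 0.262). The processed pseudogene BNIP3P1 was at up to 16.7 FPKM and 467 reads, highest in PC3 replicates 4 and 3, so that reads of near-identical sequence could have been split between the copies.

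ANKRD37 (chromosome 4, 185396021 to 185400628), an ankyrin repeat gene used in hypoxia signatures, was at 0.364, 0.276, 0.211 and 0.375 FPKM in BPH-1, at 0.462, 0.416, 0.637 and 0.297 in DU145 and at 0.434, 0.444, 0.590 and 0.958 in PC3. PC3 was above BPH-1 in every library, at 24 to 53 reads against 14 to 25, and DU145 overlapped both. The difference of PC3 from BPH-1 was 0.29 ± 0.10 (adjusted p = 0.0293). This call was lost with the GC trend divided out (0.15, adjusted p = 0.0919), with every library brought to an equal sum (0.21, adjusted p = 0.0865), with no filter on low values (adjusted p = 0.0747) and without the libraries of strongest tilt (0.14, adjusted p = 0.113). It was also lost without BPH-1 replicate 2 (adjusted p = 0.0623), BPH-1 replicate 3 (adjusted p = 0.0784) or PC3 replicate 3 (adjusted p = 0.0558). PC3 against DU145 gave 0.14 (95% interval -0.13 to 0.40, adjusted p = 0.369), and 0.22 (adjusted p = 0.0326) with the GC trend divided out. UFSP2 on the opposite strand shares 909 exon bases with ANKRD37 and was at 5.10, 2.28 and 2.73 FPKM in BPH-1, DU145 and PC3, above ANKRD37 in each line.

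**Figure D3:**
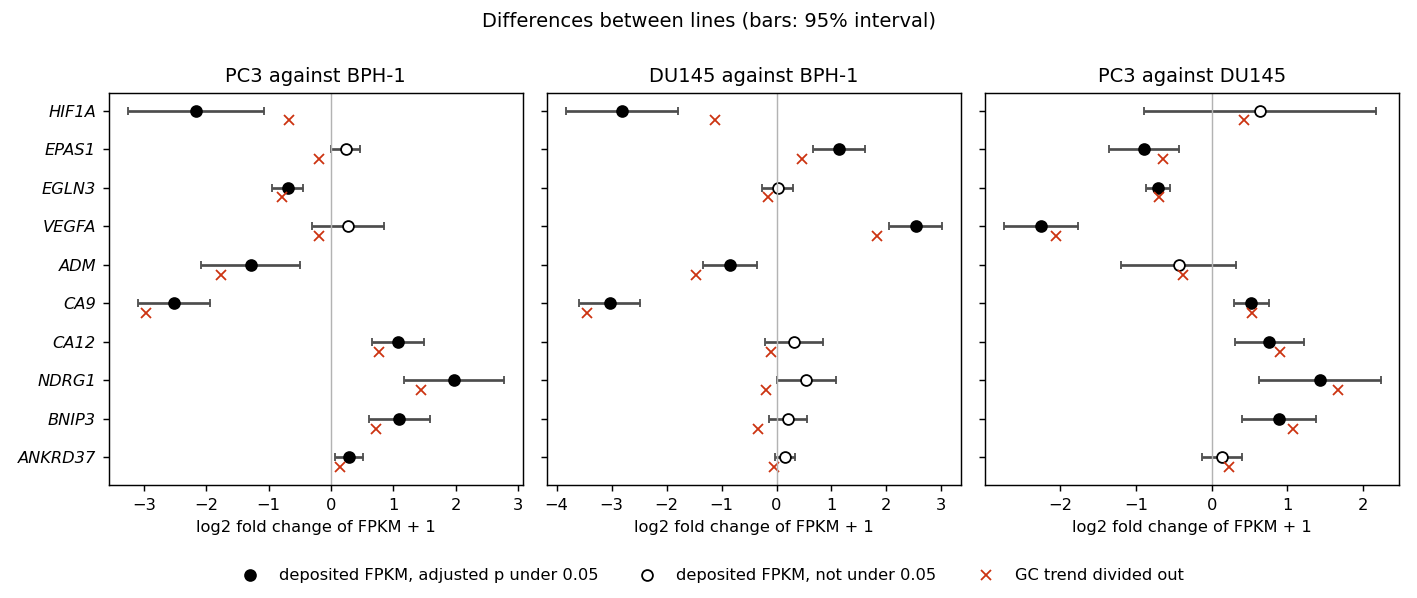
Log2 fold change of FPKM + 1 for the 10 genes in the 3 comparisons, with 95% intervals, filled circles for an adjusted p under 0.05 and red crosses for the value with the GC trend divided out. CA9 against DU145 is drawn as fitted and is not counted. The crosses of HIF1A lie nearer to 0 in both comparisons with BPH-1 (-0.68 and -1.12), while those of VEGFA in DU145 (1.82) and NDRG1 in PC3 (1.44) stay far from it.

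For a single gene the exact two-sided permutation test over 4 against 4 libraries cannot go below 0.0286. It gave that value for the FPKM of every call of the 10 genes above but 1, ADM in PC3 against BPH-1, where it gave 0.0857 because PC3 replicate 4 overlapped BPH-1.

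Within PC3, 6 of the 10 genes (EGLN3, CA9, CA12, NDRG1, BNIP3 and ANKRD37) were higher in both libraries of stronger tilt, replicates 3 and 4, than in replicates 1 and 2, and HIF1A was lower. Of 15433 genes compared in this way, 22.3% were higher in both and 30.3% lower. With the GC trend divided out, 5 of the 10 genes (the same without CA12) were higher, against 11.9% of all genes, and HIF1A and EPAS1 were lower, against 37.9%. Within DU145, VEGFA, ADM, NDRG1 and ANKRD37 were higher in replicates 1 and 3, those of stronger tilt, and HIF1A and BNIP3 lower, against 40.2% and 36.4% of 16557 genes. With the GC trend divided out, 0 were higher in DU145, against 15.8% of all genes. HIF1A, VEGFA, ADM and BNIP3 were lower, against 49.8%. CA9 was lower as well, but with 0 to 2 reads in a DU145 library it is set aside. These counts are descriptions of 2 libraries against 2 and were not tested.

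The machinery that controls HIF was measured with a list of 15 genes, of which HIF3A was at or near 0 in all lines and 14 were tested. In PC3 against BPH-1, 5 were higher and 4 lower (3 and 6 with the GC trend divided out), with a median log2 fold change of 0.09 against -0.13 over all genes. VHL, which recognises hydroxylated HIF, was at 3.52 FPKM in BPH-1, 4.13 in DU145 and 9.11 in PC3, and was higher in PC3 than in BPH-1 by 1.16 (adjusted p = 1.72e-05) and than in DU145 by 0.99 (adjusted p = 0.000844). ELOC, elongin C of the VHL complex, was at 2.27, 6.50 and 6.90 FPKM and was higher than in BPH-1 in DU145 by 1.20 (adjusted p = 5.26e-05) and in PC3 by 1.27 (adjusted p = 5.98e-06). CUL2, the scaffold of that complex, was higher in PC3 than in DU145 by 1.98 (adjusted p = 0.00489).

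In DU145 against BPH-1, 6 machinery genes were higher and 1 lower (6 and 2 with the GC trend divided out), with a median of 0.37 against -0.03. The genes were not the same on both scales. CUL2 was called lower (-0.71, adjusted p = 0.0447) and, with the GC trend divided out, higher (0.61, adjusted p = 0.00766). EGLN1 was called higher only after the correction, and ARNT and HIF1AN only before it. ARNT2, an alternative partner of the HIF alpha subunits, was at 0.563 FPKM in BPH-1, 2.63 in DU145 and 0.139 in PC3, and was higher in DU145 than in BPH-1 by 1.22 (adjusted p = 2.86e-05). CITED2, which competes with HIF for the coactivators EP300 and CREBBP, was at 14.0, 37.2 and 18.1 FPKM and was higher in DU145 by 1.32 (adjusted p = 0.000388). SIAH2, a ubiquitin ligase for prolyl hydroxylases, was at 14.1, 43.2 and 26.0 FPKM and was higher in DU145 by 1.53 (adjusted p = 3.52e-05). In PC3 against DU145, 2 machinery genes were higher and 5 lower (2 and 6 with the GC trend divided out), with a median of -0.28 against -0.05, and HIF1AN, the asparaginyl hydroxylase of HIF, was lower by 0.84 (adjusted p = 0.00546), at 6.49 against 12.1 FPKM. EGLN1, the main prolyl hydroxylase, was at 5.08 FPKM in PC3 and 8.88 in BPH-1 (-0.70, adjusted p = 0.000329), a call lost with the GC trend divided out (-0.28, adjusted p = 0.0565).

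**Figure D4:**
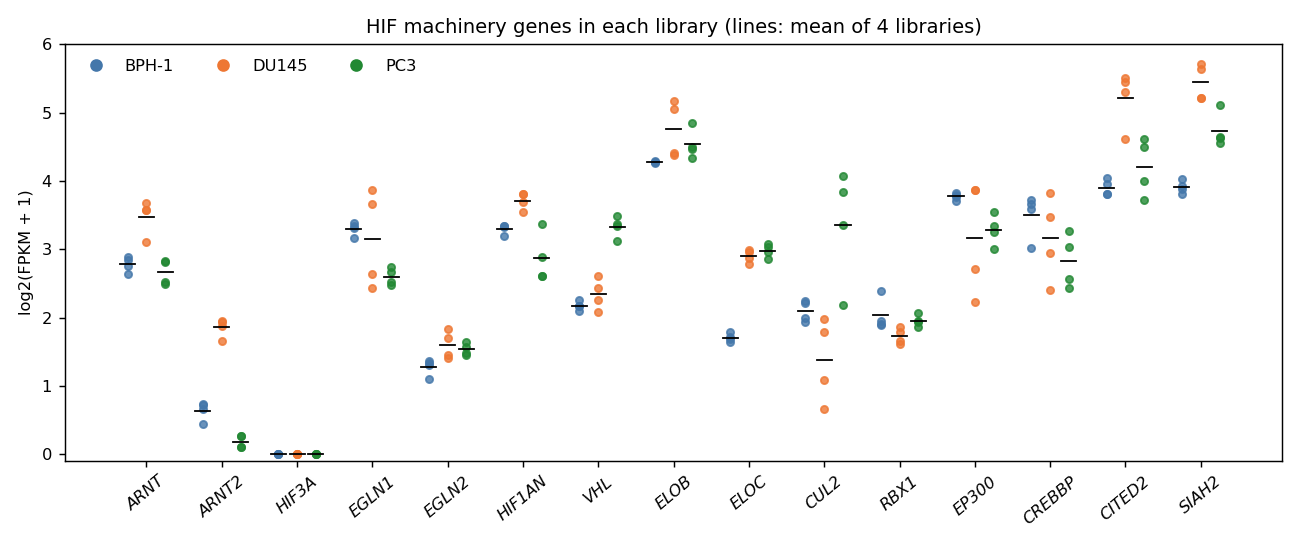
Log2(FPKM + 1) of the 15 HIF machinery genes in every library, with the line as the colour and short black lines for the mean of 4 libraries. ARNT2, CITED2 and SIAH2 are highest in DU145, VHL in PC3, and HIF3A is at or near 0 in all 3 lines.

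A further 24 genes known to be induced by hypoxia moved in both directions. In PC3 against BPH-1, 11 of 22 were higher and 7 lower (10 and 4 with the GC trend divided out), with a median of 0.59 against -0.13 over all genes. The counts with PC3 leave out PPP1R3C, which had at most 3 reads in every PC3 library. PFKFB4, a glycolytic regulator, was 2.18 higher (adjusted p = 3.02e-05, 9.88 against 1.29 FPKM) and BHLHE40, a transcriptional repressor, 1.69 higher (adjusted p = 4.69e-06, 46.2 against 13.7 FPKM).

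In DU145 against BPH-1, 7 of these 24 were higher and 8 lower, and 11 and 6 with the GC trend divided out, with a median of -0.37 against -0.03. NDUFA4L2 is among those higher on both scales, but it had 2 to 12 reads in a BPH-1 library. It passed the filter only through DU145, so its call carries no weight. The secreted glycoprotein STC2 was 2.97 higher (adjusted p = 9.84e-07, 139 against 17.2 FPKM) and the mTORC1 inhibitor DDIT4 2.17 higher (adjusted p = 3.57e-05, 229 against 50.9 FPKM). ERO1A, an oxidase of the endoplasmic reticulum, was lower by 2.60 (adjusted p = 0.000178, 6.71 against 40.3 FPKM). In PC3 against DU145, 8 of 23 were higher and 6 lower (9 and 8 with the GC trend divided out), with a median of 0.11 against -0.05, and DDIT4 was lower by 3.88 (adjusted p = 1.29e-05) at 15.6 FPKM in PC3. NDUFA4L2 is among those lower on both scales, but with 4 to 12 reads in a PC3 library it again passed only through DU145. P4HA1, a collagen prolyl hydroxylase, was 2.36 higher in PC3 (adjusted p = 0.00342, 57.6 against 12.7 FPKM).

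Of 8 glucose and lactate genes under HIF control, 5 were higher and 0 lower in PC3 against BPH-1 (5 and 2 with the GC trend divided out), with a median of 0.95 against -0.13. In DU145 against BPH-1, 3 were higher and 4 lower (1 and 5 with the GC trend divided out), with a median of -0.09 against -0.03. In PC3 against DU145, 5 were higher and 1 lower (6 and 1), with a median of 1.82 against -0.05. The lactate exporter SLC16A3 was at 3.20 FPKM in BPH-1, 8.60 in DU145 and 31.7 in PC3, and was higher in PC3 than in BPH-1 by 2.96 (adjusted p = 5.08e-07). The glucose transporter SLC2A1 was at 15.3, 50.2 and 12.2 FPKM and was higher in DU145 than in BPH-1 by 1.68 (adjusted p = 0.000257), the line in which VEGFA was highest too. LDHA, lactate dehydrogenase A, was at 79.2, 25.4 and 95.8 FPKM and was lower in DU145 than in BPH-1 by 1.60 (adjusted p = 1.28e-05).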

How the data were processed

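RNA of BPH-1, DU145 and PC3 cells, 4 libraries per line, was isolated with TRIzol and chloroform and sequenced after NEB Ultra library preparation. The deposited table gives the authors' FPKM for 58302 genes on GRCh38. Its header names no unit, and FPKM was inferred from the values. The submitters' processing notes name CASAVA 1.8, HISAT2 2.1.0 and edgeR. With GENCODE 29 exon lengths, 93.2% to 94.3% of low values per library were whole reads (tolerance 0.05), which gave the depth. Genes needed 10 reads at the median depth in 4 libraries and 15 reads in all, and 263 genes without a length were left out. limma 3.58.1 (R 4.3.3, intensity trend) was fitted to log2(FPKM + 1) of the lines compared, two-sided, with Benjamini-Hochberg adjustment over all genes tested. The GC correction divided out a spline (5 degrees of freedom, genes with at least 50 reads) in each library, and also removes any real difference that follows GC content. Scripts were tested on simulated data with the depths of PC3 and BPH-1. With no GC trend, 71% of 2-fold and 100% of 4-fold changes were recovered. With a GC trend left in, 11110 of 11273 calls were unchanged genes. After the correction 123 of 275 were, and 51% of 2-fold and 100% of 4-fold changes were recovered. The simulated trend was the same in every PC3 library and the spread was fixed, whereas the real tilt differed between libraries of a line. DU145 was not simulated, so these rates need not hold for the real comparisons. A call lost with the correction may thus be a real difference, and a call kept may be a false one. Named genes were the 10 genes and, per list and comparison, up to 4 genes with the largest fold change among calls whose lines did not overlap, of which some are given, and for HIF1A and EPAS1 the 3 most correlated genes. A result of 1 listed gene is not reported here. The genes, lists and tests were chosen with earlier results of these data known. Intervals are 95% intervals of the model. Limits from reads cover counting error only. Replicates differed by more than counting noise in all 18 pairs within a line. Python 3.11.15, numpy 2.4.6, pandas 2.3.3 and matplotlib 3.10.9 were used for tables and plots.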

Additional observations from a re-analysis of the deposited data

Results flagged for a closer look

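With 4 libraries a line, 33 sets of values were searched for a library far from the other 3, and 2 were found, where chance gives about 5%. ADM in PC3 replicate 4 was at 3.21 FPKM, far above the other 3 PC3 libraries, which lay between 0.374 and 0.731. The summed FPKM of DU145 replicate 4 was 302456, while those of the other 3 DU145 libraries lay between 289756 and 291753.

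DU145 and PC3 were each compared with the same BPH-1 libraries, and the difference between their effects is the direct comparison of PC3 with DU145. By limma it passed the threshold for 6 of 9 genes, with CA9 set aside. The log2 difference was -2.26 for VEGFA, -0.90 for EPAS1 and -0.71 for EGLN3, all lower in PC3, and 1.43 for NDRG1, 0.89 for BNIP3 and 0.76 for CA12, all higher in PC3. All 4 PC3 libraries were on the same side of all 4 DU145 libraries for each of the 6. For CA9 the fitted value was 0.52, but with at most 2 reads in a DU145 library it passed the filter only through PC3, and it is given with no test.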

How the results depend on the processing

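Of the 30 fold changes (10 genes in 3 comparisons), 11 kept their direction and their side of the threshold under all alternatives, CA9 in DU145 against BPH-1 among them. The others include every value that turned its direction, and in each case the cause was not tested. With the GC trend divided out, the values that turned were EPAS1 (-0.18) and VEGFA (-0.20) in PC3 against BPH-1, and EGLN3 (-0.15), CA12 (-0.10), NDRG1 (-0.19), BNIP3 (-0.34) and ANKRD37 (-0.041) in DU145 against BPH-1. When every library was brought to an equal sum, EPAS1 in PC3 against BPH-1 turned to -0.013, and EGLN3 and BNIP3 in DU145 against BPH-1 to -0.098 and -0.025. EGLN3 also turned without BPH-1 replicate 1 (-0.078), in a range of -0.078 to 0.111 with each library left out in turn. None of these was past the threshold before or after. Genes called higher in DU145 against BPH-1 numbered 4 with upper-quartile scaling (BNIP3 at 0.48 and NDRG1 at 0.82 in addition) and 1 with the GC trend divided out, instead of 2, and with 1 library left out between 2 and 3. In PC3 against DU145, an absolute log2 fold change over 1 left 2 of the 7 calls, 1 higher and 1 lower, and without the DU145 libraries with PTPRC reads 2 instead of 4 were higher. The counts here include CA9, which passed the filter in the comparisons with DU145 only through the other line, so its calls there carry no weight. Leaving out those libraries, those with DCN reads or those of strongest GC tilt were alternatives chosen after seeing the data.

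The median log2 fold change of all genes in PC3 against BPH-1 moved from -0.13 to -0.28 with an equal sum per library and to 0.09 with upper-quartile scaling, and in DU145 against BPH-1 from -0.03 to -0.16 and 0.13. Replicate numbers did not pair the libraries, since the correlations between same-numbered libraries ran from -0.65 to 0.51. With the replicate number as a block, the counts of called genes, with CA9 included, stayed at 8, 5 and 7. Calls over all genes fell from 3282 higher and 4655 lower to 2732 and 4013 in PC3 against DU145. Genes under about 10 reads a library, such as CA9 in DU145, cannot be compared beyond the floor of 3 reads.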
